A study of Mus musculus with 6 samples.

Results

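The genes of the inflammasome sensors, their adaptor, the caspases of the pathway and the pore-forming gasdermin D were examined in the skin of YAP2-5SA-∆C transgenic mice. The 10 genes were chosen by name (*Mefv*, *Nlrp3*, *Nlrp10*, *Nlrc4*, *Aim2*, *Pycard*, *Casp1*, *Casp4*, *Casp14* and *Gsdmd*), and all 10 were found among the 26579 genes of the count table. RNA-Seq had been carried out on dorsal neck skin of 3 female wild type mice and 3 female YAP2-5SA-∆C littermates, all 33 days old. The transgenic mice express a mildly activated form of the coactivator YAP in basal keratinocytes and were sampled when the skin phenotype was first visible from outside, whereas the controls carry no transgene. Whole skin was biopsied, so each value is a mixture of epidermis, hair follicle, dermis and the leukocytes in them, and fewer cells of a type and less RNA per cell cannot be told apart.

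Inflammasomes are complexes that form in the cytosol when a sensor protein meets a microbial product or a sign of damage. Sensors of the pyrin, NLR and AIM2 kinds recruit the adaptor ASC, encoded by *Pycard*, which gathers and activates caspase-1. Active caspase-1 matures the cytokines IL-1β and IL-18 and cuts gasdermin D, whose freed part opens pores in the plasma membrane. The *Casp4* product, known in the mouse as caspase-11, binds bacterial lipopolysaccharide inside the cell and cuts gasdermin D without a sensor. The *Casp14* product belongs to the caspase family by sequence, but it works in the cornifying layers of the epidermis, where it takes part in processing filaggrin, and is not a caspase of inflammation.

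Total counts per library lay between 11225705 and 19505036. Between 17.2% and 20.4% of them fell on mitochondrial ribosomal RNA, and 5.27% of those of wild type replicate 3 fell on the unnamed gene ENSMUSG00000045999, which took at most 0.288% elsewhere. *Yap1* itself had 131 ± 9.47 CPM in wild type skin and 136 ± 7.32 CPM in transgenic skin (SD, n = 3 each), and it was not tested if transgene reads fell on the mouse gene. Levels are given in CPM, counts per 1000000 of the TMM-scaled library size. The skin origin was visible in keratinocyte and fibroblast markers, with wild type means of 1648 CPM for *Krt14* and 2402 CPM for *Col1a1*, whereas the T cell markers summed to at most 18.5 CPM in any library.

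Of the 10 genes, *Casp4* was higher in YAP2-5SA-∆C skin in the test across all genes, at about double the wild type level. *Mefv*, *Nlrp10*, *Gsdmd*, *Pycard*, *Casp14*, *Aim2* and *Nlrp3* also lay above wild type in every transgenic mouse, without passing the threshold. *Casp1* and *Nlrc4* overlapped between the genotypes. The test was the quasi-likelihood (QL) test of edgeR, run over the 15102 genes that reached 1 CPM in 3 or more libraries, and a gene was called at a Benjamini-Hochberg adjusted p-value (FDR) below 0.05. Differences are given as log2FC, the log2 ratio of YAP2-5SA-∆C to wild type, with the standard error (SE) of the fit. All members but *Nlrp3* entered the test, and each of these 9 had at least 1 CPM in at least 2 wild type libraries. The test called 1 of the 9, against a background of 1.44% of all tested genes called higher, and 4 of the 9 had an FDR below 0.1, against 7.26%. In 7 of the 9 every YAP2-5SA-∆C library lay above every wild type library, against 15.5% of all tested genes. All 9 log2FC values were above 0, against 47.6% of all tested genes, with a median of 0.43 against -0.01 over all genes. The likelihood-ratio test of edgeR, which the study's methods used, called 3 of the 9 (*Casp4*, *Mefv* and *Nlrp10*) against 5.52% of all genes called higher. DESeq2 called 4 (the same 3 and *Casp14*) against 6.48%, and voom called none against 1.23%. At an unadjusted p-value below 0.05, 6 of the 9 were higher in the QL test, against 13.3% of all genes, and voom also had 6, against 26.4% of all genes in either direction.

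**Figure D1:**
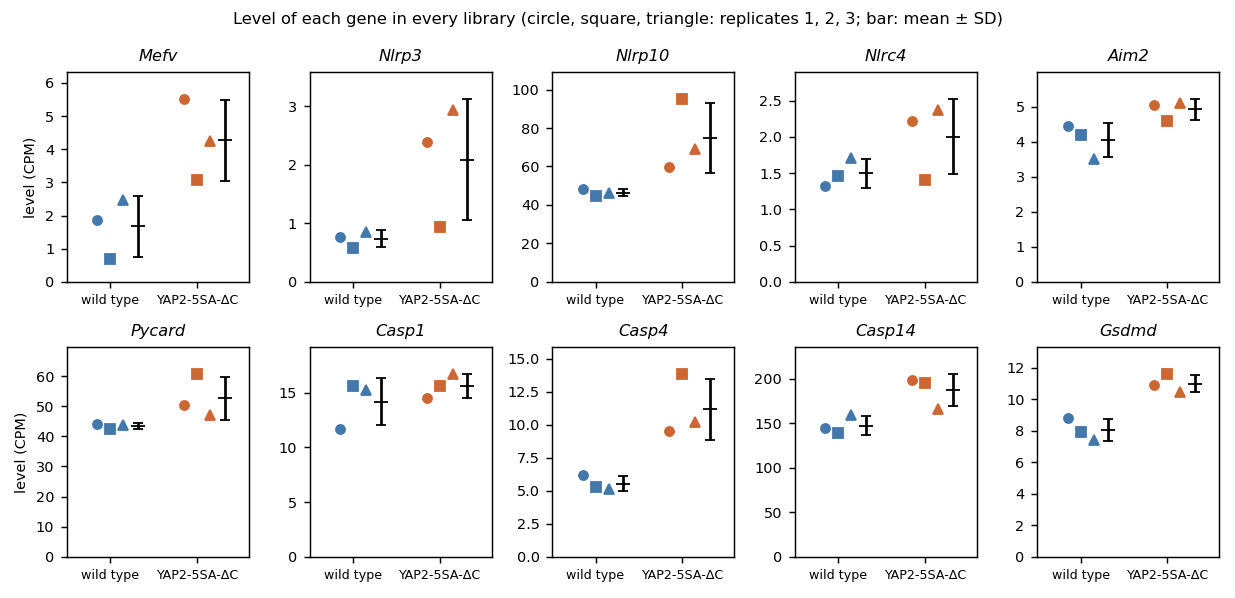
Level of each of the 10 genes in every library, in CPM on axes that start at 0, with wild type in blue, YAP2-5SA-∆C in orange, and the mean with its SD (n = 3) as a black bar. The orange points lie wholly above the blue ones for 8 of the 10 genes and overlap them for *Casp1* and *Nlrc4*.

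The levels of the 10 genes were first compared with each other per length of exon (RPKM, from the CPM and the union of annotated exons). *Casp14* was the highest by this measure, with 61.6 ± 4.41 RPKM in wild type and 78.2 ± 7.49 RPKM in transgenic skin (SD, n = 3 each). The union held 3800 bases for *Pycard*, from 2 annotated transcripts, and 2394 bases for *Casp14*. A shorter length for *Pycard* would raise its RPKM, so its place in the order depends on the length used. Levels per expressed transcript were not computed. *Pycard*, *Nlrp10* and *Casp1* followed at 11.4, 10.3 and 9.47 RPKM in wild type skin. *Gsdmd* had 3.39 RPKM, *Casp4* 1.49 and *Aim2* 1.16, and the sensors *Mefv*, *Nlrc4* and *Nlrp3* were the lowest with 0.515, 0.312 and 0.181. The molecules that several sensors share were thus more abundant per length than each sensor but *Nlrp10*. In wild type skin the ranges of neighbours in this order overlapped for *Nlrp10* and *Casp1* and for *Mefv* and *Nlrc4*, and all other neighbours were apart. In YAP2-5SA-∆C skin *Nlrp10* (16.6 ± 4.05 RPKM, SD, n = 3) stood before *Pycard* (13.9 ± 1.87 RPKM), in the same order in all 3 mice although their ranges overlapped, and *Nlrp3* stood before *Nlrc4* in 2 of 3 mice. The ranges of *Nlrp3* and *Nlrc4* overlapped there, as did those of *Aim2* and *Mefv*.

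**Figure D2:**
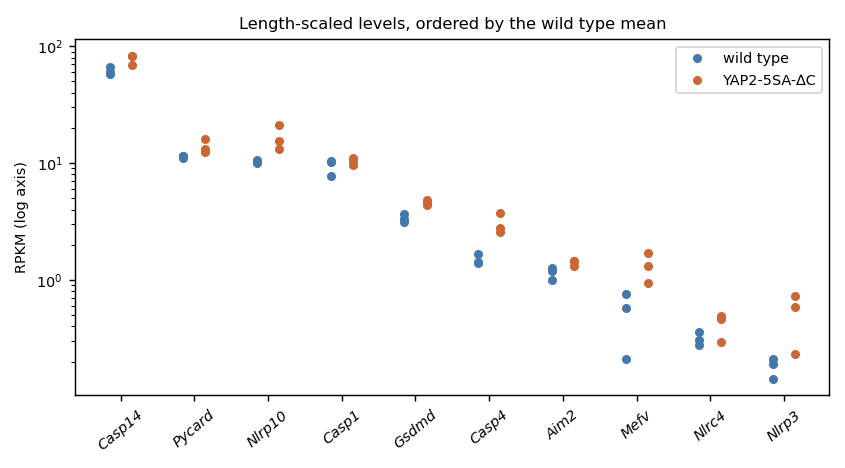
RPKM of the 10 genes on a log axis, with 1 point per library (blue, wild type; orange, YAP2-5SA-∆C), ordered by the wild type mean. *Casp14* stands at 58.0 RPKM or more in every library, and *Nlrp3*, *Nlrc4* and *Mefv* lie at 1.69 RPKM or less.

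Among the sensors, *Mefv* had the largest difference of those tested. It encodes pyrin, which is found mainly in granulocytes and monocytes. The gene (ENSMUSG00000022534, chromosome 16 of GRCm38 from 3707218 to 3718097, minus strand) had 34, 13 and 26 counts in wild type replicates 1, 2 and 3, against 99, 52 and 68 for the YAP2-5SA-∆C replicates. As levels these were 1.87, 0.680 and 2.47 CPM against 5.51, 3.06 and 4.24 CPM. Every transgenic mouse was above every wild type mouse, and wild type replicate 2 was low. The log2FC was 1.41 (SE 0.43, 95% interval 0.39 to 2.43), with an FDR of 0.102 by edgeR's QL test. The likelihood-ratio test of edgeR gave it an FDR of 0.000453 and DESeq2 gave 0.0213. Over all 16 alternatives the FDR of *Mefv* ran from 0.000453 to 0.211, and its log2FC stayed between 0.99 and 1.76.

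The study also measured *Mefv* by quantitative PCR in mice of the same cohort and reports significantly higher expression in transgenic skin. The study had chosen *Mefv* from the genes that its own edgeR analysis found upregulated. The primers are shown here against the annotated transcripts, because they read fewer of them than the counts do. No base is in capitals, since each primer matched over its whole length where it matched.
Mefv-F: tgcactacaggttgcatcaaat
Mefv-R: ggtatcaccacgcaggtctc
The forward primer lies in exon 2 (chr16:3715197-3715218) and the reverse primer in exon 3 (chr16:3713762-3713781), both within coding sequence, with a product of 94 bases. In GENCODE M21 the reverse primer matched all 3 annotated *Mefv* transcripts and the forward primer matched 1 of the 3. That transcript has an exon 2 of 936 bases. The other two end exon 2 earlier, at 846 bases, so that none of the 22 bases of the forward primer lies in their exons. The counts are per gene and do not separate these transcripts.

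*Nlrp10* was the sensor with the highest level. Its product lacks the leucine-rich repeats of other NLR proteins and is known from keratinocytes. The gene (ENSMUSG00000049709, chromosome 7 from 108921852 to 108930178, minus strand) had 48.2, 44.8 and 46.1 CPM in the wild type replicates and 59.8, 94.96 and 69.1 CPM in the YAP2-5SA-∆C replicates. The wild type mice were close to each other and the transgenic mice all above them, with replicate 2 highest. The log2FC was 0.69 (SE 0.16, 95% interval 0.31 to 1.07), with an FDR of 0.0635 by edgeR's QL test. Without YAP2-5SA-∆C replicate 2, the mouse with the highest value, the log2FC was 0.49 and the FDR of the edgeR test 0.0224. DESeq2 (FDR 0.00105) and edgeR's likelihood-ratio test (FDR 0.00560) also passed *Nlrp10*, and over the 16 alternatives its FDR ran up to 0.208.

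*Nlrp3* encodes the sensor that responds to potassium efflux and other signs of cell damage, and its transcript is induced by NF-κB in myeloid cells. The gene (ENSMUSG00000032691, chromosome 11 from 59541568 to 59566956) had 14, 11 and 9 counts in wild type and 43, 16 and 47 counts in YAP2-5SA-∆C replicates 1, 2 and 3. It reached 1 CPM in 2 transgenic libraries and in none of wild type, and so stayed below the filter. As levels, wild type had 0.770, 0.576 and 0.856 CPM and YAP2-5SA-∆C skin 2.39, 0.941 and 2.93 CPM. The genotypes did not overlap, but replicate 2 of the transgenic mice was close to the highest wild type mouse. Without the filter on low counts the log2FC was 1.54 (SE 0.43, 95% interval 0.57 to 2.51) with an FDR of 0.0988 by edgeR's QL test.

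*Nlrc4*, the sensor that joins NAIP proteins to respond to flagellin and bacterial secretion systems, had between 1.32 and 1.71 CPM in wild type. In YAP2-5SA-∆C replicates 1, 2 and 3 it had 2.22, 1.41 and 2.37 CPM, so that replicate 2 fell within the wild type range. Its log2FC of 0.43 (SE 0.25) had a 95% interval of -0.16 to 1.03 and an FDR of 0.316 by the QL test of edgeR. *Aim2*, which binds DNA in the cytosol, had 3.52 to 4.45 CPM in wild type skin and 4.59 to 5.12 CPM in transgenic skin. The 2 ranges were apart by less than the spread within wild type, and the log2FC of 0.27 (SE 0.14, 95% interval -0.05 to 0.60) had an FDR of 0.256 by that edgeR test. *Aim2* had 37 to 91 counts and *Nlrc4* 18 to 40 per library.

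*Pycard* encodes the adaptor ASC (ENSMUSG00000030793, chromosome 7 from 127989708 to 127993867, minus strand). It had 44.0, 42.3 and 43.9 CPM in the wild type replicates and 50.3, 60.6 and 47.0 CPM in the YAP2-5SA-∆C replicates. The wild type values differed from each other by less than any of them differed from a transgenic value. The log2FC was 0.28 (SE 0.10, 95% interval 0.04 to 0.51), with an FDR of 0.137 by edgeR's QL test. A gene annotated on the opposite strand shares 485 exonic bases with *Pycard*, and whether the counting used strand is not given in the sources used here.

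*Casp1*, the caspase that matures IL-1β and IL-18, was the member with the smallest difference. It had 11.7, 15.6 and 15.2 CPM in wild type skin and 14.5, 15.6 and 16.7 CPM in transgenic skin. The groups overlapped, and the log2FC of 0.14 (SE 0.13) had a 95% interval of -0.17 to 0.44 and an FDR of 0.534 (edgeR, QL test). The interval thus reached no further than 0.44, so that a doubling like that of its neighbour lies outside it.

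*Casp4* (ENSMUSG00000033538) lies 1562 bases downstream of *Casp1*, on the same strand of chromosome 9, from 5308828 to 5336783. It had 113, 101 and 54 counts in the wild type replicates and 171, 235 and 164 in the YAP2-5SA-∆C replicates, which gave 6.21, 5.29 and 5.14 CPM against 9.51, 13.8 and 10.2 CPM. All transgenic mice were well above all wild type mice, and replicate 2 was the highest. The mean rose from 5.54 ± 0.582 to 11.2 ± 2.31 CPM (SD, n = 3 each), a log2FC of 1.01 (SE 0.17, 95% interval 0.61 to 1.41) with an FDR of 0.0437 by edgeR's QL test. The call was close to the threshold. It held with RLE scaling, upper-quartile scaling, no filter on low counts, a filter of 10 counts in every library, trended dispersions, and without mitochondrial ribosomal RNA and ENSMUSG00000045999, where *Casp4* was the 1 member called and 1.83%, 2.24%, 1.4%, 1.56%, 1.66% and 1.81% of all genes were called higher. The FDR of the same test was 0.0640 without wild type replicate 1 (0.822% of all genes called higher), 0.186 when replicate 2 of wild type was left out and 0.144 for replicate 3 (0% of all genes in both). It was 0.0611 without YAP2-5SA-∆C replicate 1 (0.51% called higher), 0.0215 without replicate 2 (2.72%) and 0.0906 without replicate 3 (0%). These 3 fits with 0% thus called 0 genes of any kind by edgeR's QL test, and 2725, 2844 and 3692 genes had an unadjusted p-value below 0.05 in them. Voom gave 0.0539, DESeq2 0.000233 and edgeR's likelihood-ratio test 6.28e-05, and the log2FC stayed between 0.84 and 1.13 over the 16 alternatives.

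The 2 neighbouring caspase genes were also compared within each library, which needs no scaling between libraries. For each count of *Casp1* there were 0.531, 0.339 and 0.338 counts of *Casp4* in wild type replicates 1, 2 and 3, against 0.658, 0.887 and 0.614 for the YAP2-5SA-∆C replicates. Every transgenic ratio was above every wild type ratio (two-sided exact permutation test over 3 mice against 3, p = 0.1, the smallest p this design allows, or 0.333 after Benjamini-Hochberg adjustment over the 10 ratios computed). *Casp12*, the next gene of the cluster (chromosome 9 from 5345430 to 5373032), had 9.16 to 10.9 CPM in wild type skin and 12.5 to 15.4 CPM in transgenic skin. Its log2FC was 0.43 (SE 0.12), with an FDR of 0.0841 by edgeR's QL test. The 3 genes of the cluster thus gave log2FC values of 0.14, 1.01 and 0.43 in their order along the chromosome.

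*Gsdmd*, whose product forms the pore (ENSMUSG00000022575, chromosome 15 from 75862327 to 75867408), had 8.80, 7.95 and 7.42 CPM in wild type skin and 10.9, 11.6 and 10.5 CPM in transgenic skin. The spread within each genotype was small and the groups were apart. The log2FC was 0.45 (SE 0.10, 95% interval 0.20 to 0.69), with an FDR of 0.0635 by edgeR's QL test. *Casp14* (ENSMUSG00000005355, chromosome 10 from 78711991 to 78718294, minus strand) had 145, 139 and 159 CPM in wild type skin and 199, 196 and 167 CPM in transgenic skin. Its lowest transgenic mouse, replicate 3, was near its highest wild type mouse. The log2FC was 0.34 (SE 0.09, 95% interval 0.13 to 0.56), with an FDR of 0.0758 by the QL test of edgeR and 0.00994 in DESeq2, against a range of 0.00994 to 0.226 over the 16 alternatives.

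**Figure D3:**
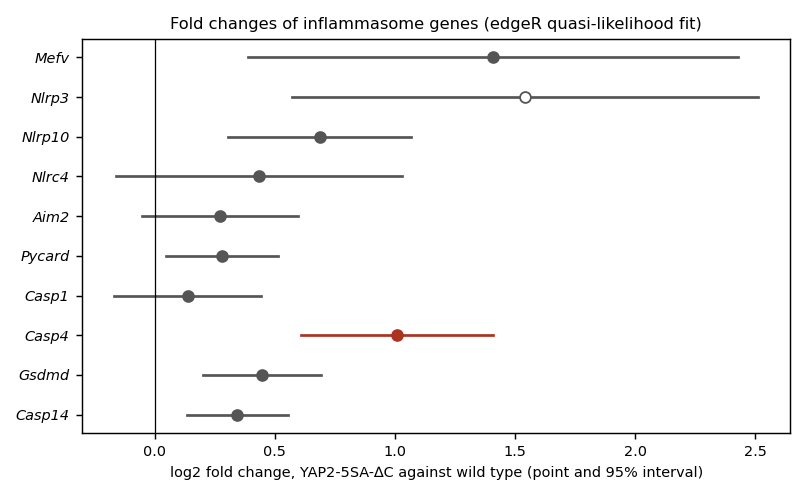
Log2FC of YAP2-5SA-∆C against wild type skin with its 95% interval from edgeR's QL fit, with the member past an FDR of 0.05 in red and *Nlrp3*, which is below the count filter, as an open point from the fit without that filter. The intervals of *Nlrc4*, *Aim2* and *Casp1* include 0, and the other 7 lie above it.

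The YAP2-5SA-∆C mice differed among themselves, and not in the same way for all genes. *Mefv*, *Nlrp3*, *Nlrc4* and *Aim2* were lowest in replicate 2. In contrast, *Nlrp10*, *Pycard*, *Casp4* and *Gsdmd* were highest in replicate 2. The summed neutrophil markers (9 of the 10 listed genes in the table) had 16.7 to 52.3 CPM in wild type. In YAP2-5SA-∆C replicates 1, 2 and 3 the sum was 75.8, 37.2 and 86.3 CPM, with replicate 2 lowest. This did not hold for each marker, since *Cxcr2* had 14.1, 13.2 and 11.7 CPM in these mice, with replicate 3 lowest. *S100a8* and *S100a9*, which stressed keratinocytes also express, were the most abundant of these markers by mean CPM. *Cxcr2* exceeded both in wild type replicates 1 and 2 and in YAP2-5SA-∆C replicate 2. Of the other neutrophil markers, *Ngp*, *Ltf* and *Camp* had fewer than 10 counts in every library, whereas *Csf3r* had 61, 72 and 52 counts in wild type and 260, 114 and 214 in the transgenic replicates, all of them higher. The summed basal keratinocyte markers had 4458 to 5409 CPM in wild type and 7041, 8816 and 7211 CPM in the transgenic replicates, with replicate 2 highest. The hair shaft and inner root sheath markers summed to 12271 to 14962 CPM in wild type and to 6604, 1510 and 8378 CPM in the transgenic replicates, with replicate 2 lowest. Of the tested markers, edgeR's QL test called 2 of 10 for macrophages (*Csf1r* and *Mrc1*), 1 of 4 for neutrophils (*Cxcr2*), 2 of 8 for Langerhans and dendritic cells (*Itgax* and *Cd74*), 2 of 8 for mast cells (*Cma1* and *Hdc*) and 1 of 10 for basal keratinocytes (*Krt14*), each of them higher in transgenic skin, where 1.44% of all genes were called higher. In the same order, the likelihood-ratio test of edgeR called 4, 2, 4, 7 and 3 higher (5.52% of all genes called higher). DESeq2 called 6, 2, 4, 6 and 5 (6.48%) and voom 2, 1, 2, 1 and 1 (1.23%). Of the markers named here voom did not call *Cma1*. The QL test called none of 5 for T cells, none of 9 for suprabasal keratinocytes, none of 9 for hair shaft and inner root sheath and none of 10 for fibroblasts. Of these, 0, 3, 7 and 4 had an unadjusted p-value below 0.05 in that test, against 26.3% of all genes. For these 4 lists voom also called none (1.65% of all genes). The likelihood-ratio test of edgeR called 2 suprabasal markers higher and 7 hair markers lower (10.4% of all genes), and DESeq2 called 3 suprabasal and 2 fibroblast markers higher (10.7%). Among the most abundant markers that the QL test did not call, the log2FC was 0.0061 for *Epcam*, 0.47 for *Cd4*, 0.19 for *Cd3g*, 0.56 for *Cpa3* and 0.65 for *Mcpt4*. It was 0.41 for *Flg2*, 0.58 for *Krt10*, 0.40 for *Col3a1*, -1.23 for *Tchh* and -1.37 for *Krt71*, and 1.47 for *S100a9*, 0.88 for *S100a8*, 0.72 for *Krt5* and 0.33 for *Col1a1*. The part of these cell types in the differences of the members was not tested. The levels were also set against the marker sums within each library, as ratios that were chosen after the data had been seen, and all 10 ratios had an adjusted p of 0.333 or more in two-sided exact permutation tests.

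Per 1000 CPM of macrophage markers (10 genes, 411 to 493 CPM in wild type skin and 583 to 627 CPM in transgenic skin), *Casp4* had 15.1, 11.5 and 10.4 CPM in the wild type replicates and 16.3, 22.2 and 16.3 CPM in the transgenic ones. The groups stayed apart by this measure too (exact permutation, two-sided, p = 0.1, the lowest value possible here). *Mrc1* and *Csf1r*, with a log2FC of 0.54 each, made up much of this sum. The less abundant *Cd14* and *Fcgr1* had 1.52 and 0.98, the largest values of the list, against 1.01 for *Casp4*. Of the 10 markers, 9 had a log2FC above 0 and *Mertk* had -0.16, with a median of 0.41. *Mefv* had 4.54, 1.47 and 5.02 CPM per 1000 CPM of these markers in wild type and 9.45, 4.90 and 6.77 in YAP2-5SA-∆C skin, where the groups overlapped (two-sided exact permutation test, p = 0.2). *Nlrp3* had 1.87, 1.25 and 1.74 CPM per 1000 CPM of them in wild type and 4.10, 1.51 and 4.68 in YAP2-5SA-∆C skin, which overlapped through replicate 2 of the transgenic mice (two-sided exact permutation test, p = 0.3).

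*Nlrp10* and *Casp14* were set against both sums of keratinocyte markers. Per 1000 CPM of basal keratinocyte markers, *Nlrp10* had 8.90, 10.1 and 9.63 CPM in wild type skin and 8.49, 10.8 and 9.58 CPM in transgenic skin, with a mean of 9.53 and 9.61. The groups overlapped (two-sided exact permutation test, p = 1, which does not show that they are equal), and *Krt14* and *Krt5* made up much of this sum, whereas the median log2FC of the 10 markers was 0.46, against 0.69 for *Nlrp10*. Per 1000 CPM of suprabasal keratinocyte markers, *Nlrp10* had 5.15, 5.73 and 5.23 CPM in wild type skin against 5.49, 5.68 and 7.38 CPM, which overlapped as well (two-sided exact permutation test, p = 0.3). *Casp14* had 15.5, 17.7 and 18.1 CPM per 1000 CPM of suprabasal keratinocyte markers in wild type and 18.3, 11.7 and 17.8 in YAP2-5SA-∆C skin, which overlapped (two-sided exact permutation test, p = 0.9). Per 1000 CPM of basal keratinocyte markers *Casp14* had 26.7, 31.1 and 33.2 CPM against 28.3, 22.2 and 23.1 CPM, with overlapping groups (two-sided exact permutation test, p = 0.2). The suprabasal markers summed to 7823 to 9344 CPM in wild type and to 10882, 16721 and 9357 CPM in the transgenic replicates.

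**Figure D4:**
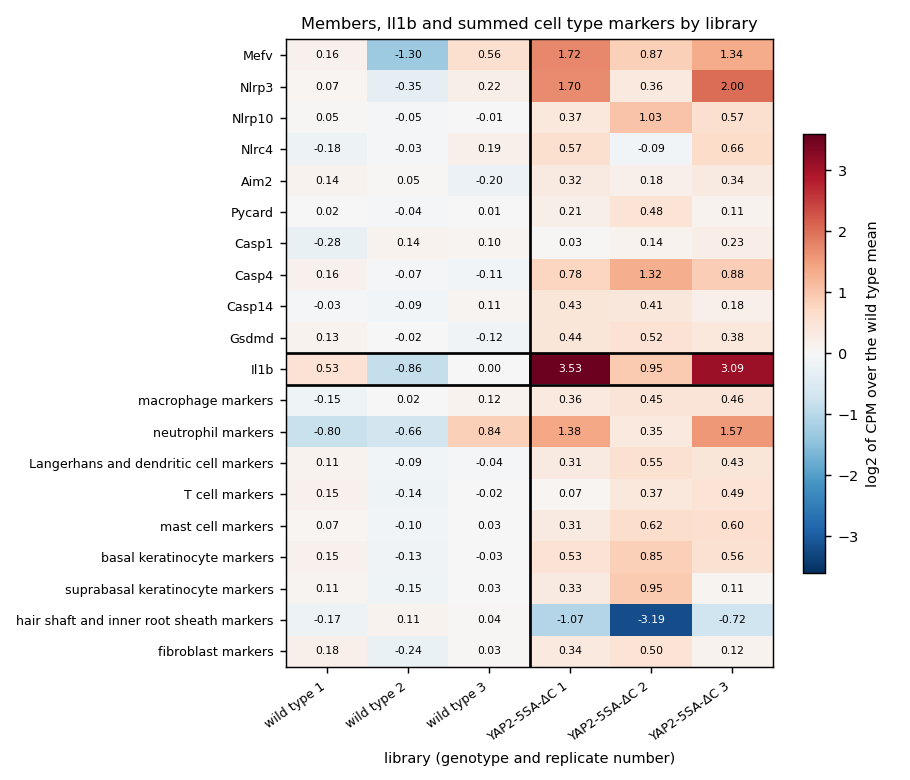
Log2 of the CPM of each member, of *Il1b* and of each summed marker list over its wild type mean, by library, with red above and blue below that mean. In YAP2-5SA-∆C replicate 2 *Nlrp3* stood at 0.36 and *Il1b* at 0.95, against 1.70 and 3.53 in replicate 1, whereas *Casp4* stood at 1.32 against 0.78.

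The other genes of the pathway were taken from 5 lists with 67 genes in all, of which 60 were tested. Of the 60, 3 rose in YAP2-5SA-∆C skin and none fell by edgeR's QL test, against 1.91% of all tested genes called in either direction. At an unadjusted p-value below 0.05 there were 29 of the 60, against 26.3% of all tested genes. The likelihood-ratio test of edgeR called 12 of the 60 (10.4% of all genes), DESeq2 14 (10.7%) and voom 2 (1.65%). These shares over all genes, for calls in either direction, also hold for the counts per list that follow.

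Among the cytokines, receptors and antagonists downstream of the inflammasome, 2 of 10 tested genes rose, none fell, and the median log2FC was 0.51. They were both chains of the IL-18 receptor. An unadjusted p-value below 0.05 was reached by 8 of the 10, and the likelihood-ratio test of edgeR called 5, DESeq2 6 and voom 1. *Il18rap* rose from 1.63 ± 0.318 to 4.41 ± 0.723 CPM (SD, n = 3 each), a log2FC of 1.46 (SE 0.20) with an FDR of 0.0375 by edgeR's QL test. *Il18r1* rose from 1.64 ± 0.477 to 5.93 ± 2.27 CPM (SD, n = 3 each), a log2FC of 1.89 (SE 0.34) with an FDR of 0.0467. Their wild type libraries held 21 to 28 counts each. Both calls ended without wild type replicate 1, 2 or 3 or YAP2-5SA-∆C replicate 3 (FDR 0.0640, 0.178, 0.114 and 0.0906 for *Il18rap* and 0.0861, 0.190, 0.139 and 0.0906 for *Il18r1* in the edgeR test), and that of *Il18rap* also without YAP2-5SA-∆C replicate 1 (0.0642). The log2FC stayed between 1.33 and 1.61 for *Il18rap* and between 1.57 and 2.14 for *Il18r1* over the 16 alternatives. Voom did not call *Il18r1* (FDR 0.0615).

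*Il1b*, the precursor that caspase-1 matures, had 45, 18 and 18 counts in wild type and 354, 56 and 233 counts in the YAP2-5SA-∆C replicates, or 2.47, 0.942 and 1.71 CPM against 19.7, 3.29 and 14.5 CPM. The transgenic mice were all above the wild type mice, but replicate 2 was several times lower than the other two. The log2FC was 2.87 (SE 0.67), with an FDR of 0.0635 by edgeR's QL test. Without that mouse the FDR was 0.00851, and it ran from 1.61e-06 to 0.210 over the 16 alternatives. *Il18*, the other precursor, had 25.9 to 26.6 CPM in wild type skin and 36.8, 49.8 and 32.2 CPM in transgenic skin, with replicate 2 highest. Its log2FC was 0.59 (SE 0.15) and its FDR 0.0745 in edgeR's QL test, whereas the likelihood-ratio test and DESeq2 called it.

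Of the other gasdermins and the membrane rupture gene *Ninj1*, 1 of 7 tested genes rose and none fell, with a median log2FC of 0.21. An unadjusted p-value below 0.05 was reached by 3 of the 7, and the likelihood-ratio test of edgeR called 2 (*Gsdmc* and *Gsdmc2*), DESeq2 the same 2 and voom 1 (*Gsdmc*). *Gsdmc*, which encodes another pore-forming gasdermin of epithelia, rose from 28.4 ± 4.49 to 67.3 ± 15.8 CPM (SD, n = 3 each), a log2FC of 1.25 (SE 0.19) with an FDR of 0.0398 by edgeR's QL test. The call ended without wild type replicate 1, 2 or 3 (FDR 0.0640, 0.178 and 0.135) or YAP2-5SA-∆C replicate 3 (0.0906), with a log2FC of 1.05 to 1.41 over the 16 alternatives. *Gsdmc2* had 1.35 ± 0.481 and 6.07 ± 3.39 CPM, a log2FC of 2.21 (SE 0.51) with an FDR of 0.0622 in edgeR. The *Gsdmc* genes are near-identical copies and only uniquely mapped reads were counted, so the division of reads among them is uncertain. *Gsdma*, a gasdermin of differentiated epidermis and hair follicle, had 161 ± 15.8 and 136 ± 13.4 CPM (SD, n = 3 each), with overlapping groups and an FDR of 0.170 in edgeR.

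None of the 14 other sensors tested was called by edgeR's QL test, and 7 had an unadjusted p-value below 0.05, against 26.3% of all genes. The likelihood-ratio test of edgeR called 4, DESeq2 3 and voom 0. All 14 log2FC values were above 0, with a median of 0.39. *Naip2*, whose product senses a rod protein of bacterial secretion systems for NLRC4, had 3.85, 4.87 and 4.76 CPM in wild type skin and 7.17, 7.30 and 7.18 CPM in transgenic skin. The transgenic mice were nearly equal, and the log2FC of 0.69 (SE 0.13) had an FDR of 0.0505 in edgeR. This value turned on the settings, since *Naip2* was called in 7 of the 16 alternatives, with an FDR from 0.00768 to 0.186, among them the QL test with RLE scaling (0.0487) or with no filter on low counts (0.0427). *Naip5*, for flagellin, had a log2FC of 0.63 (SE 0.16) with an FDR of 0.0722 in edgeR. The *Naip* genes also resemble each other, which makes their counts from unique reads uncertain. *Nlrc5*, an activator of MHC class I genes, had 56.6 ± 6.92 and 89.2 ± 20.8 CPM (SD, n = 3 each) and an FDR of 0.0744 in the edgeR test.

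None of the 22 activators and regulators and none of the 7 other caspases was called by edgeR's QL test. An unadjusted p-value below 0.05 was reached by 8 and 3 of them, against 26.3% of all genes. The likelihood-ratio test of edgeR called 1 and 0 of them, DESeq2 2 and 1, and voom 0 of both. The median log2FC values were 0.13 and 0.17. *Serpinb1a*, an inhibitor of neutrophil proteases and caspases, had 17.2 ± 1.45 and 25.1 ± 3.18 CPM (SD, n = 3 each), a log2FC of 0.54 with an FDR of 0.0576 in edgeR. *Nek7*, the kinase that licenses NLRP3, had 71.5 ± 0.746 and 86.1 ± 6.70 CPM, a log2FC of 0.27 with an FDR of 0.0745 in edgeR, and the adaptor gene *Myd88* one of 0.33 with an FDR of 0.0657. *Casp8*, the initiator caspase of death receptors, had 26.6, 26.5 and 26.2 CPM in wild type skin and 32.5, 35.1 and 32.6 CPM in transgenic skin. Its spread was narrow, with a log2FC of 0.34 (SE 0.06) and an FDR of 0.0505 in edgeR. *Casp8* was called in 6 of the 16 alternatives, with an FDR from 0.0175 to 0.190, among them the QL test with RLE scaling (0.0468) or trended dispersions (0.0486).

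**Figure D5:**
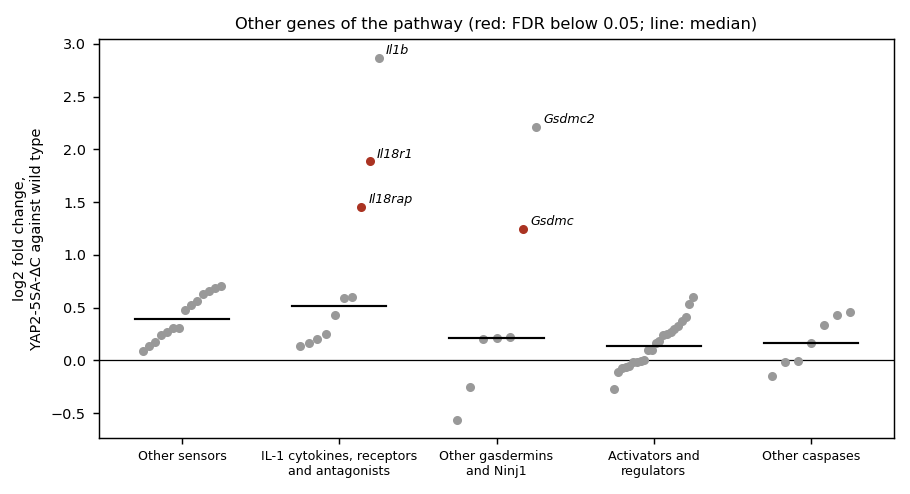
Log2FC of the 60 tested genes of the 5 further pathway lists, with 1 point per gene, those past an FDR of 0.05 by edgeR's QL test in red and the median of each list as a line. The 3 red points are *Il18r1*, *Il18rap* and *Gsdmc*, and all points of the other sensors and of the IL-1 list lie above 0. The 13 points below 0 belong to the remaining lists.

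Promoter sequence was available for 8 of the 10 members, all but *Nlrp10* and *Gsdmd*, in RefSeq (GRCm38.p6), as 250 bases before to 50 after each annotated start. Both strands were searched for GGAATG (the TEAD motif, through which YAP acts), TGANTCA (AP-1), GGG and TTTCC with any 2 bases between them (NF-κB), GAAA repeated after any 2 bases (interferon response), TTCNNNGAA (STAT) and GAGGAAGT (PU.1), where N is any base. These motifs were chosen after the data had been seen. The NF-κB letters were found in the promoter of *Casp4*, the member that passed the test, and in none of the 7 other members searched. They occurred at 2 places there, whereas 1.63% of the 32851 promoters of the table held them at all. The TEAD letters were found in *Casp14* and *Aim2* and occur in 14.7% of all promoters. The PU.1 letters were found in *Aim2* and *Pycard* and occur in 3.20%. The AP-1, interferon response and STAT letters, in 7.81%, 3.44% and 8.30% of all promoters, were found in none of the 8 members. The windows of 24 bases with the NF-κB and TEAD letters are shown, with the match in capitals, 5′ to 3′ on the strand of the gene.
Casp4, plus strand, chr9:5308749-5308772: agttacaGGGGATTTCCccacagc
Casp4, plus strand, chr9:5308828-5308851: atgctaaGGAAATGCCCagtaact
Casp14, minus strand, chr10:78718387-78718410: tcgttcattCATTCCatgggcgtt
Aim2, plus strand, chr1:173420381-173420404: gggaaggatCATTCCtatggtatc
Starts are those of RefSeq, and GENCODE M21 lets *Casp4* and *Aim2* begin further upstream. *Casp4* begins at 5308828 there, so its second match lies within the gene by that annotation. The first *Casp4* match begins 93 or 104 bases before the start, depending on which of the 2 annotated starts is used, and the second 14 or 25 bases before it. A match of letters is a description of the sequence, and binding was not measured in these libraries.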

How the data were processed

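RNA-Seq counts of 3 wild type and 3 YAP2-5SA-∆C skin samples were analysed. Paired-end reads had been mapped by the authors with Tophat2 (version 2.0.12 in the submitters' processing notes) and Bowtie2 2.1.0 on GRCm38, who deposited raw counts of uniquely mapped reads per gene from HTSeq-count. The annotation release and the strand setting are not given in the sources used here. Reads of near-identical genes are missing from such counts, and the labels name both mRNA libraries and a stranded total RNA kit.

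Genes reaching 1 CPM in 3 or more libraries were kept (15102), scaled with TMM and tested for genotype with edgeR 4.0.16 (glmQLFit and glmQLFTest) in R 4.3.3. Alternatives were edgeR's likelihood-ratio test and voom (limma 3.58.1), which the study's methods list, DESeq2 1.42.0, other scaling and filters, the replicate number as a block, and fits without 1 library. The standard error is the log2 fold change over the square root of F. The tests were tested on simulated data. Names, exons and lengths came from GENCODE M21 (GRCm38), in which 558 identifiers are absent. The members and lists were chosen with earlier results of these data known. The ratios within libraries and the motifs were chosen after seeing the data. Named besides the members were pathway genes that passed the test or had the 3 lowest p-values of their list, and the 2 most abundant markers of a list. *Il18*, *Nlrp1a*, *Csf3r*, *Cd14*, *Fcgr1*, *Mertk*, *Ngp*, *Ltf*, *Camp* and the markers named for having passed the test were chosen after their values were seen. Each library came from a separate mouse, per the study's methods. A pathway gene that this rule names is not reported here.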

Additional observations from a re-analysis of the deposited data

How the results depend on the processing

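All tested members had a log2 fold change above 0 in all 16 alternatives. The number of the members called was 1 in the main test and 1 with other scaling, other count filters, a trended dispersion, or without mitochondrial ribosomal RNA and ENSMUSG00000045999. It was 3 with edgeR's likelihood-ratio test, 4 with DESeq2, 0 with voom, and 0 to 2 when each library was left out. Voom had 6 members at an unadjusted p-value below 0.05 (26.4% of all genes), and the edgeR fits without 1 library that had 0 calls had 5 or 6 (18.2% to 25.7% of all genes). Of the other pathway genes, 3 were called in the main test, 5 with RLE scaling, with upper-quartile scaling or without mitochondrial ribosomal RNA and ENSMUSG00000045999, 12 with the likelihood-ratio test, 14 with DESeq2 and 0 to 7 when each library was left out. Over all genes the number of calls was 288 in the main test, 497 with no low-count filter, 1568 with the likelihood-ratio test, 1590 with DESeq2 and 0 to 816 when each library was left out. The cause of these differences was not tested.

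With the replicate number as a block, edgeR called 0 members, 0 other pathway genes and 0 genes in all, where 5, 20 and 2949 had an unadjusted p-value below 0.05 (19.5% of all genes). Samples with the same number did not deviate together (correlation of deviations -0.354, -0.259 and -0.0706), so they share only a number. *Nlrp3* entered 2 alternatives, with 9 to 47 counts per library. *Nlrc4* had 18 to 40 and *Mefv* 13 to 99, and the part of depth in their standard errors was not tested.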
